A study of Mus musculus with 3 samples.

Results

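The cells described here are dendritic cells of mice that had carried human skin grafts, recovered from the grafts and chosen by measured RNA. A cell was a member if it had at least 1 UMI of *Flt3* or at least 2 of *Fscn1*, at least 5 of *H2-Aa*, 0 of *Cd79a*, *Cd3d*, *Cd3e*, *Cd3g*, and *Pdgfra*, and at most 1 of *Trem2*. A UMI, or unique molecular identifier, marks 1 captured RNA molecule. Cells were kept beforehand if they had at least 300 genes, fewer than 100000 gene UMIs, and less than 10% of UMIs from mitochondrial genes. The rule found 82 members among 2144 kept graft cells (3.82%, 95% interval 3.05 to 4.73%, exact Clopper-Pearson as for all shares above 0), and the 3 libraries of the series held 18226 kept cells. Members were divided by *Ccr7* into 47 *Ccr7*-high cells with at least 5 UMIs (57.3%, 45.9 to 68.2%), 30 *Ccr7*-low cells with at most 1 (36.6%, 26.2 to 48.0%), and 5 cells in between (6.1%, 2.01 to 13.7%). Levels of the genes that chose or divided the cells are given as description and count as no finding.

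Dendritic cells sample antigen in skin and other tissues, digest it, and show its peptides to T cells on MHC molecules. Conventional dendritic cells depend on the growth factor receptor *Flt3*, and fall into cDC1, which carry *Xcr1*, *Clec9a*, and often the integrin chain *Itgae* and present antigen of dead cells to CD8 T cells, and cDC2, which carry lectins such as *Cd209a*, *Mgl2*, and *Clec10a* and mostly serve CD4 T cells. Maturing cells stop taking up antigen, gain the chemokine receptor *Ccr7*, which leads them to lymph nodes, and the actin-bundling protein fascin, encoded by *Fscn1*, and gain molecules that drive as well as molecules that restrain T cells.

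The graft library came from human split-thickness skin that was placed under the skin of wild-type C57BL/6J mice and taken out on day 14, with the cells of 5 mice pooled. Droplets (10x Genomics, 3′ v3 chemistry) gave each cell a barcode, and RNA was counted for mouse genes, and whether RNA of the human tissue entered these counts was not tested. The remaining libraries held bone marrow cells of C57/BL6 mice grown with GM-CSF and left untreated (Co-Mac) or given 1 µM VD3, the active form of vitamin D, for 24 h (VD-Mac). The 5 mice were not told apart in the pool, which is 1 sample, so no test was made, and all intervals cover counting error only.

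The graft library held 24472168 gene UMIs in 2644 barcodes, of which 22646544 lay in the kept cells at a median of 6637.5 UMIs. Members were deeper, with a median of 13784.5 UMIs (range 2620 to 31325) and 1136725 UMIs in all. *Ccr7*-high and *Ccr7*-low members had similar depth, with medians of 14455 and 12046 UMIs and of 3168 and 3187 genes. The median share of mitochondrial UMIs was 3.13% in *Ccr7*-high and 3.8% in *Ccr7*-low members. The graft shared 7 barcodes with each culture, and 1 of the barcodes shared with VD-Mac was a *Ccr7*-high member. Without it there were 81 members, 46 of them *Ccr7*-high.

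*Flt3* carried most of the choice. Of 187 kept cells with enough *Flt3* or *Fscn1*, 92 had too little *H2-Aa*, an MHC class II chain, 59 carried the fibroblast gene *Pdgfra*, 12 the B cell gene *Cd79a*, 11 more than 1 UMI of the macrophage receptor gene *Trem2*, and 4 a Cd3 gene of T cells. Of the members, 57 entered by *Flt3* alone, 3 by *Fscn1* alone, and 22 by both. *Flt3* was sparse, since 25 members had exactly 1 UMI and the highest had 13, whereas *Fscn1* reached 76 UMIs. A further 275 kept cells met every condition but that on *Flt3* and *Fscn1*, and 2 of them had 1 UMI of *Fscn1* and 7 had at least 5 of *Ccr7*.

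Many members lay at the limit of *Flt3* and few near the other limits. By a UMI count of exactly 1 for *Flt3* and under 2 for *Fscn1*, 22 of the 82 were only just members, and with limits of 2 for *Flt3* or 4 for *Fscn1* there were 59 members, of which 71.2% were *Ccr7*-high. The lowest *H2-Aa* among members was 6 UMIs, 4 members had fewer than 10, and 4 cells that met the other conditions stood outside with 3 or 4. *Trem2* was at 1 UMI in 4 members, and 2 cells stood outside with 2. The lowest *Ccr7* counts in the *Ccr7*-high group were 5 and 7 UMIs and the highest in the cells between the groups were 4 and 4, while 29 of the 30 *Ccr7*-low members had 0 and the other 1. The *Ccr7*-high cells had a median of 42 *Ccr7* UMIs and a highest value of 85, so most lay far above the limit.

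**Figure D1:**
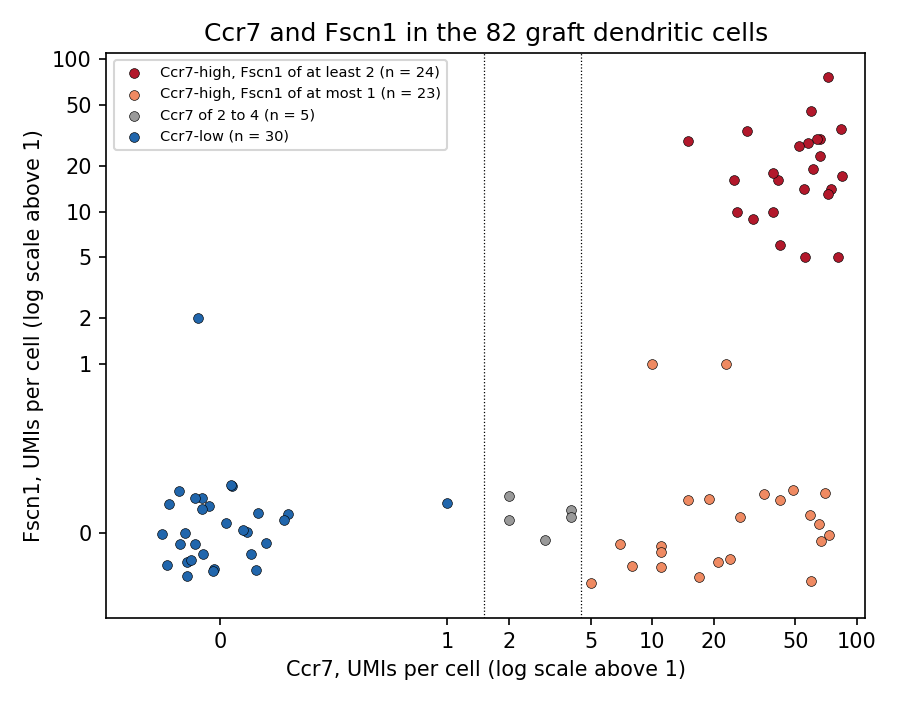
*Ccr7* and *Fscn1* UMIs in each of the 82 members, colored by group, with dotted lines at the *Ccr7* limits and points at 0 spread sideways for sight. *Ccr7*-high members form a set of 24 cells with at least 2 *Fscn1* UMIs and a set of 23 with at most 1, and 1 *Ccr7*-low member carries *Fscn1*.

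The members were set beside 3 other sets of graft cells. Levels are in counts per 1000000 (CPM), a gene's UMIs over all gene UMIs of the summed cells, scaled to 1000000, with exact Poisson intervals. The comparison sets were 262 macrophages with at least 5 UMIs of *Trem2*, 80 cells with at least 5 of *Plac8*, 1 of *Ly6c2*, and at most 1 of *Trem2*, chosen to hold monocytes, and 245 T cells with at least 3 UMIs of Cd3 genes and at most 4 of *H2-Aa*. Their median depths were 20493.5, 11123.5, and 5888 UMIs. The *Plac8* and *Ly6c2* cells were not purely monocytes, since they carried 5966 CPM (5806 to 6129) of monocyte markers but 55051 CPM (54563 to 55542) of neutrophil markers, led by *S100a8*, and 1276 CPM (1202 to 1352) of T and NK cell markers, led by the granzyme gene *Gzma*. Of the monocyte markers, *Plac8* at 2211.5 CPM and *Ly6c2* at 613 CPM had chosen the cells. Macrophages carried 5100 CPM (5045 to 5155) of the same list, so its level alone does not mark monocytes. *Flt3*, a rule gene, stood at 234 CPM (207 to 264) in members, 0.621 in macrophages, 4.52 in *Plac8* and *Ly6c2* cells, and 0 in T cells. The rule genes *Ccr7* and *Fscn1* stood at 1794 CPM (1717 to 1873) and 469.8 CPM (431 to 511) in members, against 191 and 0.598 in T cells, whose *Ccr7* is their own homing receptor.

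Of the markers that the rule did not use, *Ly75*, an endocytic receptor also called DEC-205, stood at 138 CPM (117 to 161) in members, 4.04 in macrophages, 10.2 in *Plac8* and *Ly6c2* cells, and 30.5 in T cells. *Cd209a*, a lectin of cDC2, stood at 307 CPM (276 to 341), against 28.9 in macrophages, 63.2 in *Plac8* and *Ly6c2* cells, and 1.20 in T cells. *Itgae*, the chain CD103 of an integrin that binds E-cadherin, stood at 80.9 CPM (65.2 to 99.3) in members and at 0 in macrophages and *Plac8* and *Ly6c2* cells, but at 118 in T cells, where it is also a resident-cell gene. These 3 markers thus lay above the levels of the myeloid comparison sets, and *Ly75* and *Cd209a* also above those of T cells.

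Few members shared each of these markers. With every cell thinned at random to 2000 UMIs, which left out 0 members and 1 T cell, a UMI of *Ly75* was found in 18.3% of members (10.6 to 28.4%; 41.5% unthinned) and 4.10% of T cells (11.8% unthinned). *Cd209a* was found in 15.9% of members (8.72 to 25.6%; 28.0% unthinned) and 0.41% of T cells (0.816% unthinned). *Itgae* was found in 7.32% of members (2.73 to 15.2%; 18.3% unthinned), below the 17.6% of T cells. The rule gene *Flt3* had a UMI in 48.8% of thinned members and in 0 of 244 thinned T cells, which allows up to 1.23% by a count of 3 (exact 95% limit 1.50%). *Ly75*, *Cd209a*, and *Itgae* thus marked minorities of the set.

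The *Ccr7*-low members were a mixed set. Of the 30 cells, 9 had at least 2 UMIs of *Cd209a*, and 7 of these also had at least 2 of *Mgl2* or *Clec10a*, galactose-binding lectins of cDC2. At least 1 UMI of the chemokine receptor gene *Xcr1* or of *Clec9a*, a receptor for dead cells, was seen in 8 cells, among them all 5 with at least 2 UMIs of *Itgae*. In 2 cells at least 10 UMIs came from *Siglech*, *Ccr9*, and *Cox6a2*, genes of plasmacytoid dendritic cells, which make interferon, and in 10 cells at least 3 came from *Apoe* and *Fn1*, genes of lipid transport and matrix that macrophages carry. These sets overlapped in some cells, such as 1 with the macrophage genes and *Cd209a*, and 4 cells fell in none. *Plac8*, a gene of monocytes and plasmacytoid cells, had at least 5 UMIs in 21 of the 30.

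Fewer *Ccr7*-high members carried the plasmacytoid genes, the macrophage genes, and *Plac8*. None of the 47 had 10 UMIs of the plasmacytoid genes, 2 had 3 of the macrophage genes, and 9 had at least 5 of *Plac8*. *Cd209a* of at least 2 UMIs was seen in 10 cells, *Itgae* of at least 2 in 8, both in 2, and *Xcr1* or *Clec9a* in 6. A majority, 29 of 47 (61.7%, 46.4 to 75.5%), fell in none of these sets, compared with 4 of 30 *Ccr7*-low members (13.3%, 3.76 to 30.7%). Of the 5 cells in between, 3 had at least 2 UMIs of *Cd209a* and 3 had *Xcr1* or *Clec9a*, so these cells carried markers of both conventional types. These gene sets and limits were chosen after the values were seen.

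Summed marker lists showed the same difference. The 9 monocyte markers came to 264 CPM (227 to 306) in *Ccr7*-high and 2053 CPM (1911 to 2202) in *Ccr7*-low members, led by *Plac8* in both. The 15 macrophage markers came to 504 CPM (452 to 560) and 2618 CPM (2458 to 2786), led in *Ccr7*-high cells by the mannose receptor gene *Mrc1*, with the macrophage receptor genes *Mertk* and *Cx3cr1* at 0 in *Ccr7*-low cells. The 11 plasmacytoid markers came to 413 CPM (367 to 465) and 1714 CPM (1585 to 1850), led by *Tcf4* and *Bst2*, with *Ly6d*, *Cox6a2*, *Klk1*, and *Smim5* at 0 in *Ccr7*-high cells. All 7 tested monocyte markers, all 7 macrophage markers, and 6 of 7 plasmacytoid markers were at least 2-fold lower in *Ccr7*-high members. The median log2 ratios of the monocyte, macrophage, and plasmacytoid lists were -3.68 (-3.85 with genes at 0 set to the floor), -1.93 (-1.96), and -3.72 (-2.93).

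Because these markers moved with *Ccr7*, the comparisons of the groups are also given without the cells that had at least 10 UMIs of the plasmacytoid genes or at least 3 of *Apoe* and *Fn1*, a setting added after the values were seen, which left 45 *Ccr7*-high and 18 *Ccr7*-low members. In these 18 cells the plasmacytoid markers fell to 560 CPM (470 to 662) with *Siglech*, *Ccr9*, *Cox6a2*, *Klk1*, *Ly6d*, and *Smim5* at 0. The macrophage markers fell to 802 CPM (694 to 923), led by *Mrc1*, with *Adgre1*, *Mertk*, *Cx3cr1*, and *Cd163* at 0, which was still above the 504 CPM of *Ccr7*-high cells. The monocyte markers fell less, to 1025 CPM (901 to 1160), with *Plac8* at 831 CPM. The genes by which cells were left out stand on these lists, *Siglech*, *Ccr9*, and *Cox6a2* as plasmacytoid, *Apoe* as macrophage, and *Fn1* as monocyte markers. The falls thus follow in part from the choice of cells. The setting removed only part of these transcripts, and their part in the remaining differences was not tested.

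Markers of most of the more distant cells were scarce. The 13 T and NK cell markers came to 13.1 CPM in *Ccr7*-high and 10.5 CPM in *Ccr7*-low members, with 9 of 13 at 0 in each group, the 5 keratinocyte markers had 0 UMIs, and the 8 mast cell and basophil markers had 2 and 0. The 15 B and plasma cell markers came to 43.8 CPM (29.6 to 62.6) and 202 CPM (160 to 253), led by the antibody chain gene *Ighm*, the only marker tested, which was lower in *Ccr7*-high cells. The 7 fibroblast markers came to 64.3 and 78.9 CPM, led by the collagen gene *Col3a1*, and the 5 endothelial markers to 26.3 and 94.6 CPM, led by the adhesion gene *Pecam1*, the only tested marker of that list and lower in *Ccr7*-high cells. The 10 neutrophil markers came to 399 CPM (353 to 449) in *Ccr7*-high members and 131 CPM (97.5 to 173) in *Ccr7*-low members, but 1 cell held 90.7% of the *Ccr7*-high UMIs of *S100a8* and 89.5% of those of *S100a9*, genes of a calcium-binding pair of neutrophils, the only markers tested, both higher, with a list median of 1.46 (1.53 with genes at 0 at the floor). *Cd207*, the defining gene of Langerhans cells, was at 0 in all members, although *Mfge8* and *Cdh1*, which stand on the Langerhans list with it, were not. The 6 Langerhans markers came to 443 CPM (394 to 495) in *Ccr7*-high and 129 CPM (95.3 to 170) in *Ccr7*-low members. Of 2 tested, 1 was higher in *Ccr7*-high cells, and the list median was 1.18 (1.32 with genes at 0 at the floor).

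Genes were then compared between the *Ccr7* groups. A gene was tested if it reached 50 CPM in either group and called if the levels differed at least 2-fold, and ratios carry exact conditional binomial intervals. A group at 0 is compared with a floor of 3 counts over the group, 4.38 CPM for *Ccr7*-high and 7.89 CPM for *Ccr7*-low members. The exact 95% limit of a count of 0 is higher, 5.39 and 9.70 CPM, so a ratio given as "at least" is a ratio to the floor and not the limit of an interval. Of 3349 tested genes, 376 (11.2%) were higher and 473 (14.1%) lower in *Ccr7*-high members, and the counts were 371 and 464 without the shared barcode and 412 and 401 of 3284 without the plasmacytoid and macrophage gene cells. Each gene list is given by its calls and by its median log2 ratio over genes of at least 10 CPM, with 1 CPM added, beside the median over all such genes, -0.18 (-0.13 without the plasmacytoid and macrophage gene cells). That setting is called the reduced set hereafter.

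**Figure D2:**
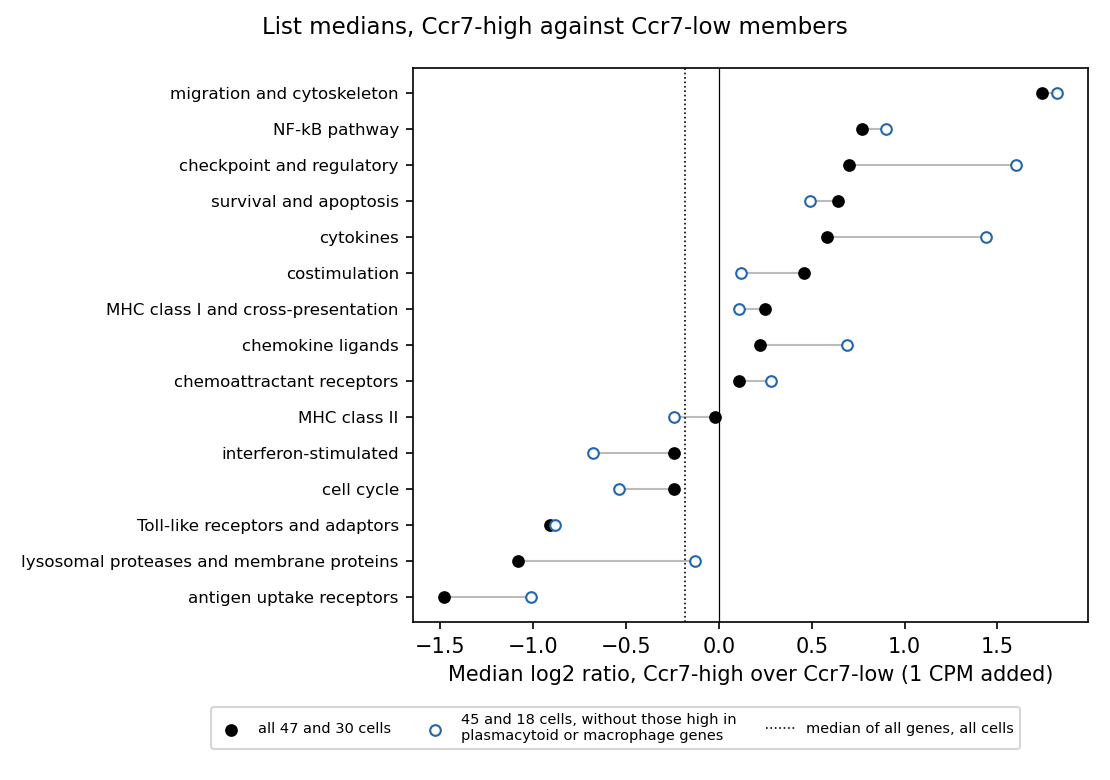
Median log2 ratio of *Ccr7*-high to *Ccr7*-low members for 15 gene lists, with 1 CPM added, for 47 and 30 members (filled) and for 45 and 18 members without cells that had 10 or more UMIs of plasmacytoid genes or 3 or more of *Apoe* and *Fn1* (open). The dotted line is the median of all genes, and the lysosomal median lies far below it at -1.08 with all members and close to it at -0.13 in the reduced set.

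Migration and cytoskeleton genes had the largest list median when all *Ccr7*-high members were taken, but not for the 23 cells without *Fscn1*, described below, where it was 0.35 (0.15 without *Ccr7* and *Fscn1*). The list was chosen with earlier results of these data known, so its rank among the lists is description only. Movement of the cells was not measured. Of 19 genes 16 were tested, 12 were higher and 1 lower, and the median was 1.74 (1.82 in the reduced set). Without *Ccr7* and *Fscn1*, which the rule used, 10 of 14 tested genes were higher and the median was 1.69. In the reduced set it was then 1.51, below the checkpoint median of 1.60 there. *Samsn1*, an adaptor that restrains receptor signaling, rose from 142 CPM (107 to 185) in *Ccr7*-low to 1272 CPM (1189 to 1359.9) in *Ccr7*-high members, a ratio of 8.97 (6.81 to 12.0). Its UMIs were found in 85.1% of thinned *Ccr7*-high cells (97.9% unthinned), 20.0% of *Ccr7*-low cells (50.0%), and 39.3% of T cells (63.7%), so the *Ccr7*-low share was not above that of T cells. *Marcks*, a membrane protein that binds actin, was found in all 47 *Ccr7*-high cells and rose 4.47-fold (3.75 to 5.36) to 1655 CPM (1560.3 to 1755).

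Other genes of this list followed. *Cacnb3*, the gene of a calcium channel subunit, had 181 CPM (151 to 216) in 25 *Ccr7*-high cells and 1 UMI in the *Ccr7*-low cells, a ratio of 68.9 (12.1 to 2744). *Swap70*, which links membrane signals to actin, was 6.38-fold higher (3.99 to 10.8). *Adam8*, a protease that sheds surface proteins, was the list's lower gene, at 115 CPM (91.4 to 144) against 281 CPM (230.5 to 339.9). *Gpr183*, a receptor for oxysterols that positions immune cells in lymphoid organs, was 3.25-fold higher (2.24 to 4.86). *Cxcr4*, a chemokine receptor that also guides dendritic cells, did not differ beyond counting error, at 421 and 389 CPM.

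Costimulatory genes, whose products activate T cells, were divided. Of 11 genes 5 were tested, 2 were higher and 1 lower, and the median was 0.46 (0.12 in the reduced set). *Cd40*, the receptor through which T cells license dendritic cells, was 7.46-fold higher (4.34 to 13.9), at 275 CPM (237 to 317), with UMIs in 38.3% of thinned *Ccr7*-high cells (72.3% unthinned), 6.67% of *Ccr7*-low cells (23.3%), and 0 of 244 T cells. *Cd80*, a ligand of CD28, was 2.49-fold higher (1.66 to 3.87). *Cd86*, the other ligand of CD28, lay within counting error in the groups, at 383 CPM (338 to 432) and 360.1 CPM (302 to 426). *Cd48*, a ligand of the receptor CD244, was 2.14-fold lower (1.30 to 3.53).

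Checkpoint and regulatory genes, which restrain T cells or cytokine signals, had 11 of 19 genes tested, 5 higher and 2 lower, with a median of 0.70 (1.60 in the reduced set, 0.10 for *Ccr7*-high cells without *Fscn1*, and -0.42 within hashtag 4, both described below). *Cd200*, a surface ligand that inhibits myeloid cells, came first in the ranking by ratio, which places genes with 0 UMIs in the lower group ahead of all others. It had 333 CPM (291 to 379) in *Ccr7*-high members and 0 UMIs in *Ccr7*-low members, at least 42.2-fold higher. Its UMIs were in 34.0% of thinned *Ccr7*-high cells (20.9 to 49.3%; 61.7% unthinned), 0 of 30 *Ccr7*-low cells, which allows up to 10% by a count of 3 (exact 95% limit 11.6%), and 2.46% of T cells (6.53% unthinned). *Il4i1*, an enzyme that breaks down aromatic amino acids, was 10.7-fold higher (6.16 to 20.4), at 367 CPM (323 to 415).

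*Socs2*, a suppressor of cytokine signaling, was 11.4-fold higher in *Ccr7*-high members (6.79 to 20.6), at 449 CPM (399.8 to 502). *Cd274*, the gene of the checkpoint ligand PD-L1, was 3.15-fold higher (2.27 to 4.47), at 356 CPM (313 to 404). *Pdcd1lg2*, the gene of the sister ligand PD-L2, was higher by less than 2-fold, 1.54 (1.14 to 2.10). *Tgfb1*, the gene of a suppressive cytokine, was 2.12-fold lower (1.64 to 2.76). Genes that restrain T cells therefore moved in both directions.

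NF-kB genes, which encode the transcription factors of dendritic cell activation and their regulators, were tested in 16 of 17 cases, with 4 higher and 1 lower and a median of 0.77 (0.90 in the reduced set). *Relb*, the subunit of the noncanonical pathway, was 4.95-fold higher (3.11 to 8.29), at 260.1 CPM (223 to 301). *Traf1*, an adaptor of tumor necrosis factor receptors, was 2.79-fold higher (2.14 to 3.68). *Rel* and *Nfkb1*, subunits of the canonical pathway, were in nearly all cells of both groups and differed less, by 1.64-fold (1.45 to 1.85) and 1.55-fold (1.33 to 1.81). The lower gene was that of the lymphotoxin receptor, *Ltbr*, at 26.3 CPM against 71.0 CPM.

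Survival and apoptosis genes had 12 of 15 tested, 6 higher and 0 lower, and a median of 0.64 (0.49 in the reduced set). *Serpinb9*, an inhibitor of granzyme B, was 6.93-fold higher (5.18 to 9.47), at 893 CPM (823 to 966). *Birc2*, an inhibitor of apoptosis that also degrades NF-kB kinases, was 9.80-fold higher (5.36 to 20.0). *Bcl2a1b*, of the antiapoptotic *Bcl2* family, was 5.08-fold higher (3.78 to 6.97). *Bcl2l11*, the gene of the proapoptotic protein Bim, stood at 285 CPM (246 to 328) against 523 CPM (453 to 601), a difference short of 2-fold. Of the genes named here, those called were thus higher, and *Bcl2l11* was lower without being called.

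Chemokine ligand genes were divided, with 10 of 18 tested, 4 higher and 4 lower, and a median of 0.22 (0.69 in the reduced set). This median was 1.15 with limits of 2 UMIs of *Flt3* or 4 of *Fscn1*. It changed sign to -1.04 for *Ccr7*-high cells without *Fscn1* and to -0.75 within hashtag 4. The higher genes were *Ccl22*, *Ccl17*, *Ccl5*, and *Cxcl16*, a ligand of CXCR6 on T cells. *Ccl22*, a ligand of CCR4 on regulatory and helper T cells, had 194 CPM (163 to 230.3) in *Ccr7*-high and 0 UMIs in *Ccr7*-low members, at least 24.6-fold higher, and was found in 27.7% of thinned *Ccr7*-high cells (48.9% unthinned) and 0 of 244 T cells. *Ccl17*, also a ligand of CCR4, had 127 CPM (102 to 157) in 12 cells against 1 UMI, a ratio of 48.4 (8.45 to 1932). *Ccl5*, an attractant of effector T cells, had 819.6 CPM (753 to 890.3) in 20 cells, with 28.3% of its UMIs from 1 of them, against 42.1 CPM (24.0 to 68.3). The lower genes were myeloid chemokines such as *Ccl9*, at 13.1 CPM against 279 CPM, and the neutrophil attractant *Cxcl2*, at 165 CPM against 628 CPM, and in the reduced set the *Ccr7*-low levels of these fell to 49.4 and 263 CPM.

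The list median of chemoattractant receptors changed sign with the cells compared. With *Ccr7*, 7 of 16 genes were tested, 2 higher and 4 lower, with a median of 0.11 (0.28 in the reduced set). The median was 1.25 within hashtag 5 and -1.0 for *Ccr7*-high cells with *Fscn1*. In counts thinned to 2000 UMIs, with the groups also redrawn at *Ccr7* of 1 against 0, it was -0.79. Without *Ccr7*, 1 of 6 was higher and 4 lower, and the median was -0.50 (0.12 in the reduced set). It was then 0.53 within hashtag 5, -2.08 for *Ccr7*-high cells with *Fscn1*, and -1.14 in the thinned and redrawn groups. *Ccr2*, which draws monocytes from blood, stood at 20.5 CPM (11.2 to 34.3) in *Ccr7*-high and 103 CPM (72.9 to 140.1) in *Ccr7*-low members, 5.01-fold lower (2.66 to 9.99), and at 90.5 CPM in the 18 *Ccr7*-low cells of the reduced set. *Ccr1*, a receptor of inflammatory chemokines, was 6.51-fold lower (3.97 to 11.1), at 30.7 CPM against 199.8 CPM, but the *Ccr7*-low level of the reduced set was 61.7 CPM.

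Cytokine genes were mostly scarce, with 4 of 17 tested, 1 higher and 1 lower, and a median of 0.58 (1.44 in the reduced set, 0.03 as a mean over cells, -0.18 for *Ccr7*-high cells without *Fscn1*, and -0.51 within hashtag 4). *Il12b*, the shared chain of the T cell-polarizing cytokines IL-12 and IL-23, had 62.8 CPM (45.5 to 84.6) in 5 *Ccr7*-high cells, 1 of which held 51.2% of its UMIs, and 2 UMIs in 1 *Ccr7*-low cell. *Il1b*, an inflammatory cytokine gene, stood at 916 CPM (846 to 991) and 662 CPM (583 to 749), and *Il1rn*, the gene of the antagonist at the same receptor, at 434 CPM (386 to 486) and 268 CPM (219 to 325), both higher by less than 2-fold. Cytokine transcripts in these cells thus came from few genes.

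MHC class II genes did not separate the *Ccr7* groups. Of 12 genes 10 were tested, 1 was higher and 2 lower, and the median was -0.02 (-0.24 in the reduced set). Without the rule gene *H2-Aa* 9 were tested, 1 higher and 2 lower, and the median was -0.05 (-0.23 in the reduced set). *H2-Ab1*, a class II beta chain, stood at 6221 CPM (6035 to 6411) in *Ccr7*-high and 6429 CPM (6177 to 6689) in *Ccr7*-low members. *Cd74*, the invariant chain that guards the peptide groove, stood at 13689 CPM (13414 to 13969) and 13602 CPM (13234 to 13978). *H2-DMb1*, a chain of the peptide exchanger H2-DM, was 2.23-fold lower (1.80 to 2.77). Across cells, *H2-Ab1* in *Ccr7*-low members ranged from 87.1 to 14136 CPM with a median of 6683 CPM, and in the 18 cells of the reduced set from 3652 to 14136 CPM with a median of 8578 CPM, so the lowest values came from cells with plasmacytoid or macrophage genes.

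MHC class I and cross-presentation genes changed little, with 15 of 16 tested, 2 higher and 1 lower, and a median of 0.25 (0.11 in the reduced set). *Psme2*, part of the immunoproteasome activator, was 2.90-fold higher (2.26 to 3.77). *H2-K1*, a class I heavy chain, and *B2m*, its light chain, were 1.65-fold (1.50 to 1.81) and 1.43-fold (1.32 to 1.54) higher. *Wdfy4*, which cDC1 need for cross-presentation, was 2.32-fold lower (1.69 to 3.21), at 105 CPM against 244 CPM. The class I pathway therefore held no common change past 2-fold, and its lower gene is a cDC1 gene.

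Antigen uptake receptors were lower as a list, with 12 of 21 tested, 2 higher and 6 lower, and a median of -1.48 (-1.01 in the reduced set). It was -0.80 with a limit of 10 UMIs for *Apoe* and *Fn1*, and -0.87 with limits of 2 UMIs of *Flt3* or 4 of *Fscn1*. For *Ccr7*-high cells with and without *Fscn1* it was -2.08 and -0.81. *Clec10a*, a galactose-binding lectin, was 3.00-fold lower (2.19 to 4.13), and its *Ccr7*-low level was higher in the reduced set, 399 CPM against 289 CPM. For the Fc receptor gene *Fcgr2b* and the endotoxin co-receptor gene *Cd14*, which were 2.75-fold (2.02 to 3.75) and 2.80-fold (2.27 to 3.46) lower, the *Ccr7*-low levels of 289 and 618 CPM fell to 173 and 214 CPM in the reduced set, beside *Ccr7*-high levels of 105 and 221 CPM. *Ly75* ran against the list, at 213 CPM (180.1 to 251) in 30 *Ccr7*-high cells and 4 UMIs in 2 *Ccr7*-low cells, 20.3-fold higher (7.76 to 75.5). Thinned, it was in 29.8% of *Ccr7*-high and 3.33% of *Ccr7*-low cells (63.8% and 6.67% unthinned), the latter no more than in T cells.

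*Cd209a* and *Itgae* were found in both *Ccr7* groups. *Cd209a* stood at 205 CPM (172 to 241) in *Ccr7*-high and 347 CPM (290.3 to 411) in *Ccr7*-low members, 1.70-fold lower (1.33 to 2.17), and at 523 CPM (436 to 622) in the 18 *Ccr7*-low cells of the reduced set, so that it was lower with *Ccr7*, by more than 2-fold there. *Itgae* stood at 74.5 CPM (55.5 to 98.0) and 92.0 CPM (64.1 to 128), within counting error, and at 144 CPM (100.3 to 200.3) in those 18 cells. The 12 markers of cDC1 came to 942 CPM (871 to 1018) and 1151 CPM (1046 to 1264), led by the transcription factor gene *Irf8*, with 0 of 5 tested genes higher and 2 lower and a median of -0.91. The 13 markers of cDC2 came to 1274 CPM (1191 to 1361) and 1611 CPM (1486 to 1744), led by *Mgl2* and by *Cd209a*, with 0 of 7 higher and 2 lower and a median of -0.50. Both types were thus represented on both sides of the *Ccr7* limit. Of the 11 conventional dendritic cell markers, 6 of 9 tested were higher and 1 lower, with a median of 1.37, and without *Flt3*, *Ccr7*, and *Fscn1*, 4 of 6 were higher and the median was 0.90. *Zbtb46*, the transcription factor of conventional dendritic cells, was 5.74-fold higher (2.50 to 16.2), and *Itgax*, the gene of the integrin chain CD11c, was 2.65-fold lower (1.73 to 4.11).

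Toll-like receptor and adaptor genes, which sense microbial products, were near the limit of detection, with 3 of 18 tested and all 3 lower. Their median was -0.91 (-0.88 in the reduced set and -2.47 for *Ccr7*-high cells with *Fscn1*). *Tlr2*, a receptor for bacterial lipoproteins, stood at 42.4 CPM (28.4 to 60.8) against 129 CPM (95.3 to 170.3), and at 57.6 CPM in the 18 *Ccr7*-low cells of the reduced set. *Unc93b1*, which carries such receptors to endosomes, was 3.16-fold lower (2.20 to 4.58) and stayed at 169 CPM in those 18 cells.

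Lysosomal genes were lower as a list, with all 14 tested, 1 higher and 7 lower, and a median of -1.08, but in the reduced set the median was -0.13, as against -0.73 when the limit for *Apoe* and *Fn1* was 10 UMIs. The cathepsin gene *Ctsb*, a protease of antigen breakdown, was 3.42-fold lower (2.88 to 4.06), at 302 CPM against 1033 CPM, and the latter was 342 CPM in the reduced set. *Psap*, the precursor of lipid-digestion cofactors, was 3.07-fold lower (2.80 to 3.37) and differed from *Ctsb* in that its *Ccr7*-low level was 3074 CPM in the reduced set. *Cd63*, a tetraspanin of late endosomes, was 4.11-fold higher (3.37 to 5.04), at 1219.9 CPM (1139 to 1306). The list median also moved with the *Ccr7*-high cells taken, to -1.76 for those with *Fscn1* and -0.71 for those without. The cause of these shifts was not tested.

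Interferon-stimulated genes had 6 of 19 tested, 1 higher and 1 lower, and a median of -0.24 (-0.68 in the reduced set). *Isg15*, a ubiquitin-like protein, did not differ beyond counting error, at 105 CPM (82.3 to 132) and 99.9 CPM (70.7 to 137). *Bst2*, which tethers budding viruses and also marks plasmacytoid cells, was 2.75-fold lower (2.15 to 3.52). Its *Ccr7*-low level of 449 CPM was lower in the reduced set. There the whole plasmacytoid list, *Bst2* included, came to 560 CPM, of which *Tcf4* held 333 CPM. Cell cycle genes had 3 of 19 tested and 0 called, with a median of -0.24 (-0.54 in the reduced set, -1.88 within hashtag 5, and -1.81 with limits of 2 UMIs of *Flt3* or 4 of *Fscn1*), and *Pcna*, the sliding clamp of DNA replication, stood at 140.2 CPM (114 to 171) and 103 CPM (72.9 to 140.1).

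Among the 15 genes ranked first toward *Ccr7*-high members, from which rule genes were left out, 11 had 0 UMIs in *Ccr7*-low members. *Adgrg6*, an adhesion G protein-coupled receptor, had 184 CPM (153 to 219) in 28 *Ccr7*-high cells, at least 23.4-fold higher, and was in 36.2% of thinned *Ccr7*-high cells and 0 of 244 T cells. *Mfge8*, a secreted bridge between dying cells and phagocytes, had 282 CPM (244 to 325) in 23 cells against 1 UMI, a ratio of 107 (19.0 to 4259). *Tnfrsf9*, the costimulatory receptor 4-1BB, had 184 CPM (153 to 219) against 1 UMI, a ratio of 70.0 (12.3 to 2788). *Tcf7*, a transcription factor better known from T cells, had 68.7 CPM (50.5 to 91.3) in 12 cells, at least 8.71-fold higher. In T cells *Tnfrsf9* and *Tcf7* stood at 666 and 133 CPM, and in macrophages *Mfge8* stood at 459 CPM. The remaining genes were *Ccl22*, *Cd200*, and *Cacnb3*, described above, and *Nostrin*, *Adam23*, *Ptpn3*, *Adcy6*, *Gbp5*, *Mical3*, *Plek2*, and *Sox4*, at 52.6 to 189.9 CPM. All of the 15 but *Adam23*, *Mfge8*, and *Ptpn3* were higher, beyond counting error, in the *Ccr7*-high cells with *Fscn1* described below. Those cells held 67 of 69 UMIs of *Nostrin* and 36 of 37 of *Mical3*. Single *Ccr7*-high cells held 33.1% of the UMIs of *Sox4*, 31.6% of *Gbp5*, and 27% of *Mical3*.

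Of the 15 genes ranked first toward *Ccr7*-low members, 3 are described here. The fibronectin gene *Fn1* stood at 331 CPM, with 63.5% of its UMIs from 1 cell, and at 24.7 CPM in the reduced set, which leaves out cells by this gene. *Hmox1*, the enzyme that breaks down heme, differed from it. It stood at 1375 CPM (1259 to 1498) in 25 of 30 *Ccr7*-low cells and 115 CPM (91.4 to 144) in *Ccr7*-high cells, 11.9-fold lower (9.39 to 15.3), and at 1062 CPM in the reduced set. Its UMIs were in 63.3% of thinned *Ccr7*-low cells (83.3% unthinned), 10.6% of *Ccr7*-high cells (42.6%), and 13.9% of T cells (27.3%), so the *Ccr7*-high share was not above that of T cells. *Cybb*, the NADPH oxidase chain of phagocytes, stood at 431 CPM against 26.3 CPM, and at 132 CPM in the reduced set, where its UMIs lay in 3 of the 18 cells.

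*Fscn1* divided the *Ccr7*-high members further. At least 2 UMIs were found in 24 of 47 cells (51.1%, 36.1 to 65.9%), 2 cells had 1, and 21 had 0. The 24 cells with *Fscn1* had a median of 57 *Ccr7* UMIs (15 to 85) and the 23 without a median of 23 (5 to 73), so the sets overlapped in *Ccr7*. Their median depths were 13019 and 15489 UMIs and their median mitochondrial shares 2.22% and 3.43%. *Fscn1* is a rule gene, and this division was made on it, so its own level is no finding.

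The sets with and without *Fscn1* were compared in the same way. Of 3298 tested genes, 493 (14.9%) were higher with *Fscn1* and 512 (15.5%) lower, against a median log2 ratio over all genes of -0.08. Floors of 3 counts were 9.12 CPM in cells with *Fscn1* and 8.44 CPM in cells without. The following levels are given with *Fscn1* first.

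MHC class II genes were lower with *Fscn1*, by a median of -1.52 (-1.55 with genes at 0 at the floor), with 0 of 10 tested genes higher and 9 lower, 8 of 9 without the rule gene *H2-Aa*. *H2-Ab1* stood at 2362 CPM (2199 to 2534) against 9790.2 CPM (9468 to 10121), 4.14-fold lower (3.83 to 4.49). The median cell had 1081 CPM with *Fscn1* (range 0 to 6952, middle 50% 172 to 4759) and 9708 CPM without (304 to 14222, middle 50% 8377 to 11737), while *Ccr7*-low members had 6683 CPM. *Cd74* was 2.60-fold lower (2.49 to 2.73), with cell medians of 6406 CPM (426 to 18591) and 19465 CPM (6989 to 32492). *H2-DMb1* was 11.3-fold lower (6.29 to 22.4), at 36.5 CPM against 413 CPM. The ranges overlapped for *H2-Ab1* and *Cd74*, but the middle 50% of cells did not overlap for either gene (3320 to 11243 CPM and 15528 to 21789 CPM for *Cd74*).

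MHC class I genes had a median of 0.69, with 5 of 15 tested genes higher, 1 lower, and 9 within 2-fold. *B2m* was 2.37-fold higher (2.18 to 2.59), at 5041 CPM (4801 to 5289.5) against 2123 CPM (1975 to 2280.4). *H2-K1* was 1.91-fold higher (1.73 to 2.12), with cell medians of 2957 and 1704 CPM. *Nlrc5*, the transactivator of class I genes, was 4.59-fold higher (2.42 to 9.47), and *Psme2* was 3.90-fold higher (3.06 to 5.03). The lower gene was *Wdfy4*, at 9.12 CPM against 194 CPM. A minority of class I genes was thus higher in the cells in which most class II genes were lower.

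Several defining genes of cDC1 and cDC2 were absent from the cells with *Fscn1* or rare in them. *Cd209a* had 0 UMIs in these 24 cells and 394 CPM (331 to 465) in 11 of the 23 without *Fscn1*, at least 43.2-fold lower. *Itgae* had 0 UMIs against 143 CPM (107 to 189) in 8 cells, at least 15.7-fold lower. Unthinned, neither gene had a UMI in any of the 24, and thinned, 0 of 24 allows up to 12.5% by a count of 3 (exact 95% limit 14.2%). *Clec10a* was at 0 against 186 CPM (144 to 236), at least 20.4-fold lower, and *Xcr1* at 0 against 50.6 CPM (30.0 to 80.0), at least 5.55-fold lower. *Mgl2* kept 30.4 CPM (14.6 to 55.9) against 692 CPM (608 to 784). The 24 cells therefore matched neither conventional type by these genes, and 22 of them fell in none of the sets described above.

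By list, 4 of 7 tested cDC1 markers were lower and 2 higher, with a median of -4.27 (-1.62 with genes at 0 at the floor), and 5 of 7 cDC2 markers were lower and 0 higher, with a median of -3.14 (-2.04). The summed cDC1 markers nevertheless stood at 894 CPM (795 to 1002) and 987 CPM (887 to 1096), because *Irf8* was 3.48-fold higher with *Fscn1* (2.65 to 4.61), at 684 CPM, while 7 of the 12 markers were at 0. The cDC2 markers came to 496 CPM (422 to 578) and 1994 CPM (1850 to 2146), and those still present with *Fscn1* were led by *Sirpa*, a receptor of the signal CD47. The lectin and integrin genes that name the types were thus absent or rare while *Irf8* and *Sirpa* were present. The conventional dendritic cell markers had 3 of 9 tested genes higher and 1 lower with a median of 0.25, and without *Flt3*, *Ccr7*, and *Fscn1* 2 of 6 were higher and 1 lower with a median of 0.00.

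**Figure D3:**
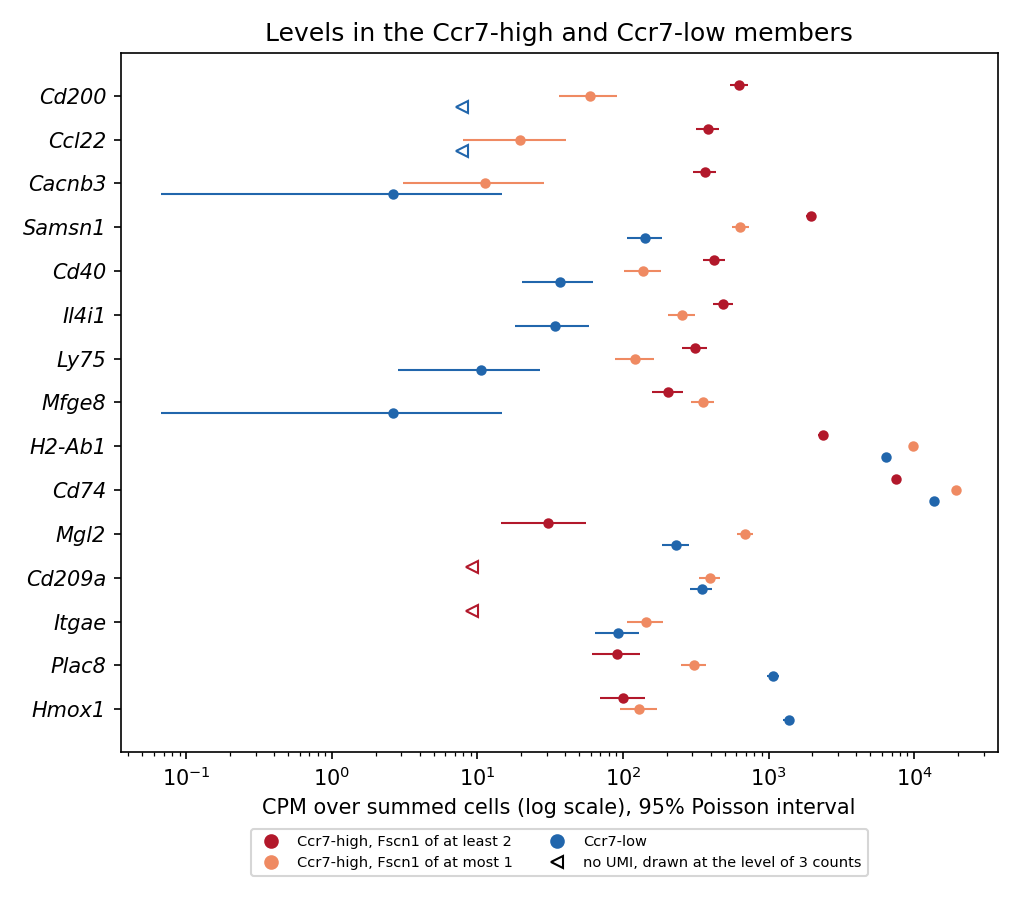
Levels in CPM of 15 genes on a log axis in *Ccr7*-high members with *Fscn1* (24 cells), *Ccr7*-high members without (23 cells), and *Ccr7*-low members (30 cells), with 95% Poisson intervals. Open triangles are groups with 0 UMIs, drawn at the level of 3 counts, as for *Cd209a* and *Itgae* in the cells with *Fscn1*.

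Antigen uptake receptors were also lower with *Fscn1*, with 8 of 11 tested genes lower and 1 higher and a median of -2.14 (-0.89 with genes at 0 at the floor, -3.54 without cells of the highest doublet scores, -1.49 as a mean over cells, and -1.01 and -6.06 within hashtags 5 and 4, described below). The higher gene was *Ly75*, at 313 CPM (256 to 379.8) against 121 CPM (87.5 to 163), 2.59-fold (1.80 to 3.79). The chemoattractant receptor list had 2 of 6 tested genes higher and 2 lower with a median of 0.41 (-0.22 without *Ccr7*). Of the Toll-like receptor list, 2 of 3 tested genes were lower and 1 higher, with a median of -1.99 (-0.62 with genes at 0 at the floor). Lysosomal genes showed no common shift, with 5 of 14 lower, 1 higher, and a median of 0.07, and *Cd63* was 6.70-fold higher (5.50 to 8.22).

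Migration genes were higher with *Fscn1*, with 10 of 16 tested genes higher and 0 lower and a median of 1.38. Without *Ccr7* and *Fscn1*, 9 of 14 were higher and 0 lower, and the median was also 1.38. *Samsn1* was 3.05-fold higher (2.62 to 3.56), *Marcks* 2.70-fold (2.37 to 3.08), and *Cacnb3* 32.4-fold (12.3 to 121), with 120 of its 124 UMIs in the 24 cells with *Fscn1*. Most of the rise of *Cacnb3* with *Ccr7* thus came from these cells. *Marcks* and *Samsn1* were different, since the cells without *Fscn1*, at 911 CPM (815 to 1016) and 641 CPM (561 to 730.1), still lay above the *Ccr7*-low levels of 371 and 142 CPM.

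Checkpoint genes were divided within the *Ccr7*-high cells, with 3 of 10 tested genes higher and 3 lower and a median of 0.76. *Cd200* stood at 629 CPM (547 to 721) in all 24 cells with *Fscn1* and 59.1 CPM (36.6 to 90.3) in 5 cells without, 10.7-fold higher (6.79 to 17.6). Thinned, its UMIs were in 54.2% of the former and 13% of the latter (100% and 21.7% unthinned). *Socs2* was 6.13-fold higher (4.47 to 8.59). *Havcr2*, the gene of the checkpoint receptor TIM-3, was 15.1-fold lower (4.88 to 75.8). *Cd274* and *Il4i1* differed by less than 2-fold, 1.70 (1.30 to 2.22) and 1.93 (1.49 to 2.53), so they rose with *Ccr7* in both sets.

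Chemokine ligands were higher with *Fscn1*, with 5 of 9 tested genes higher and 0 lower and a median of 1.04 (1.11 with genes at 0 at the floor). The median was 0.40 without cells of the highest doublet scores, 1 of them a member, 0.52 as a mean over cells, and -3.09 within hashtag 4, so its size was unstable. *Ccl5* stood at 1681 CPM (1544 to 1828) in 17 of 24 cells and 22.5 CPM (9.71 to 44.3) in 3 of 23, 74.7-fold higher (37.7 to 174). Thinned, it was in 58.3% of cells with *Fscn1*, 8.70% of cells without, and 10.2% of T cells (70.8, 13, and 15.1% unthinned), so the share without *Fscn1* was not above that of T cells. *Ccl22* was 19.5-fold higher (9.17 to 49.4), at 383 CPM in 20 cells. *Ccl17* did not follow, at 106 CPM (74.1 to 148) and 146 CPM (109 to 192). The pair of CCR4 ligands thus differed in the cells that carried them.

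Cytokine genes had 3 of 6 tested higher and 1 lower, with a median of 1.58 (0.69 with genes at 0 at the floor). All 43 UMIs of *Il12b* in *Ccr7*-high members were in 5 cells with *Fscn1*. *Il1b* was lower by less than 2-fold, at 623 CPM (541 to 715) against 1187 CPM (1076 to 1306). Costimulatory genes had 2 of 6 higher and 1 lower with a median of -0.53. *Cd40* was 3.07-fold higher (2.20 to 4.34), while *Cd80* and *Cd86* were lower by 1.48-fold (1.03 to 2.15) and 1.41-fold (1.09 to 1.82). The ligands of CD28 thus did not rise with *Fscn1*.

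NF-kB, survival, interferon, and cell cycle genes had smaller medians. NF-kB genes had 3 of 16 higher and 1 lower with a median of 0.31, and *Relb* was 2.69-fold higher (1.93 to 3.80). Survival genes had 3 of 12 higher and 0 lower with a median of 0.42, and *Serpinb9* was 3.78-fold higher (3.11 to 4.60). *Serpinb6b*, another protease inhibitor, stood at 1107 CPM (996 to 1226) against 30.9 CPM (15.4 to 55.4), 35.8-fold higher (19.8 to 72.3). Interferon-stimulated genes had 2 of 7 higher and 2 lower with a median of -0.35. Cell cycle genes had 1 of 3 higher and 0 lower with a median of 0.23, the gene being *Tubb5*, a tubulin.

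Each set was also compared with the 30 *Ccr7*-low members, a setting added after the values were seen. The migration median was 2.50 for cells with *Fscn1* and 0.35 for cells without (2.21 and 0.15 without the rule genes *Ccr7* and *Fscn1*). The class II median was -0.97 and 0.53 (-1.07 and 0.52 without the rule gene *H2-Aa*). The checkpoint median was 0.97 and 0.10, and the chemokine ligand median 0.74 and -1.04. NF-kB genes differed from these, with medians of 0.80 and 0.69. The near-equal class II levels of the *Ccr7* groups thus included a lower set of cells with *Fscn1*. The cells without *Fscn1* lay closer to the 18 *Ccr7*-low cells of the reduced set, with *H2-Ab1* medians of 9708 and 8578 CPM and overlapping middle 50% of cells (8377 to 11737 and 6573 to 9783 CPM).

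Among the 15 genes with the largest ratios toward cells with *Fscn1*, 13 had 0 UMIs in the cells without. *Tnfrsf4*, the costimulatory receptor OX40, had 179 CPM (137 to 231) in 11 cells, at least 21.3-fold higher, and stood at 342 CPM in T cells. Its ligand gene *Tnfsf4* had 66.9 CPM (41.9 to 101) in 8 cells, at least 7.93-fold higher. All 47 UMIs of *Tcf7* in members lay in 12 cells with *Fscn1*. *Tnfrsf11a*, the receptor RANK of dendritic cell survival signals, had 103 CPM (71.6 to 144) in 16 cells, at least 12.2-fold higher. Toward the cells without *Fscn1* the ranked genes included *Plet1*, a surface protein of epithelial and some myeloid cells, at 264 CPM (214 to 324) against 0, at least 29.0-fold, and *Itgb2*, the shared beta chain of leukocyte integrins, at 146 CPM (109 to 192) against 0, at least 16.0-fold.

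Markers of other cell types also differed between these sets. The 15 macrophage markers came to 511 CPM (436 to 594) with *Fscn1* and 498 CPM (427 to 577) without, led by *Mrc1* in both, with *Cd163* at 0 in the former and *Adgre1*, *Mertk*, *Cx3cr1*, and *Trem2* at 0 in the latter, and 3 of 6 tested were higher and 2 lower, with a median of 2.08 (1.81 with genes at 0 at the floor). Both *Ccr7*-high cells with at least 3 UMIs of *Apoe* and *Fn1* carried *Fscn1*, and the comparison was not repeated without them. The 10 neutrophil markers came to 797 CPM (703 to 899) and 30.9 CPM (15.4 to 55.4), which the cell with most *S100a8* and *S100a9* accounts for in large part. The 9 monocyte markers came to 149 CPM (110 to 197) and 371 CPM (311 to 440), and the 6 Langerhans markers to 246 CPM (196 to 306) and 624 CPM (545 to 712), led by *Mfge8*, with *Cd207* at 0 in both. *Cdh1*, the gene of E-cadherin, of at least 2 UMIs was in 13 of 23 cells without *Fscn1* and 1 of 24 with it. The part of these transcripts in the differences was not tested.

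The hashtag counts of the graft cells also moved with *Fscn1*. Hashtags are DNA-labeled antibodies that can tag cells before pooling. Nearly all of those counted in these cells are named as human hashtags 2 to 5, called by their number here. What each of them marked is not known. A hashtag with at least 2 times the UMIs of the next was found in 44 of the 82 members, hashtag 5 in 29 and hashtag 4 in 15, compared with 469 and 552 of the 2144 kept cells. Hashtag 5 led in 16 of 24 cells with *Fscn1*, 7 of 23 without, and 5 of 30 *Ccr7*-low members, and hashtag 4 in 1, 4, and 7. By the most abundant hashtag alone, 68% of 50 members with hashtag 5 and 36% of 25 with hashtag 4 were *Ccr7*-high. Cells with *Fscn1* thus carried mainly hashtag 5.

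Comparisons within a hashtag were added after the values were seen. The migration median of *Ccr7*-high against *Ccr7*-low members was 2.39 among 34 and 14 hashtag 5 cells and 1.04 among 9 and 13 hashtag 4 cells, and without the rule genes *Ccr7* and *Fscn1* it was 2.05 and 1.0. The checkpoint median was 1.26 with hashtag 5 and -0.42 with hashtag 4, so its direction depended on the hashtag. Chemokine ligand and cytokine medians did so too, at 0.66 and 1.50 with hashtag 5 and -0.75 and -0.51 with hashtag 4. The class II median of cells with *Fscn1* against cells without was -1.46 among 21 and 13 hashtag 5 cells and -1.34 among 2 and 7 hashtag 4 cells. The chemokine ligand median of that comparison was 0.94 and -3.09, the latter from 2 cells with *Fscn1*. The part of what the hashtags mark in these results was not tested.

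The same rule was also applied to the cultures. Members were 2055 of 7257 kept Co-Mac cells (28.3%, 27.3 to 29.4%) and 1825 of 8825 VD-Mac cells (20.7%, 19.8 to 21.5%), and 1939 and 1750 of them were *Ccr7*-high (94.4% and 95.9%). *Fscn1* of at least 2 UMIs was in 1937 and 1747 of these, compared with 24 of 47 in the graft, and *Flt3* stood at 5.33 and 2.56 CPM, compared with 254 CPM (218 to 295) in the graft. With *Flt3* at these levels, culture members could enter almost only by *Fscn1*, so its share among them follows from the rule. The cultures shared 19 barcodes with each other, and each is 1 library, so levels are set side by side without a test.

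Levels of some genes in *Ccr7*-high cells of the graft and the cultures follow. *Fscn1* of at least 2 UMIs was in 99.9% of these cells in Co-Mac and 99.8% in VD-Mac, but in 51.1% in the graft. *Relb*, *Marcks*, *Samsn1*, *Cd200*, and *Ccl22* were higher with *Fscn1* in the graft, so their graft levels here average unlike cells. Taken over all such cells, *Relb* was close in all 3, at 260.1 CPM (223 to 301) in the graft, 248 CPM (242 to 253) in Co-Mac, and 243 CPM (237 to 249) in VD-Mac. *Marcks* stood at 1655 CPM in the graft, 1079.6 CPM in Co-Mac, and 1052 CPM in VD-Mac, and *Samsn1* at 1272 CPM, 599 CPM, and 549.6 CPM. The graft levels of the class II chain *H2-Ab1*, 6221 CPM, exceeded those of Co-Mac, 749 CPM (740 to 759), and VD-Mac, 539.6 CPM (531 to 549), and the 2362 CPM of graft cells with *Fscn1* lay between. *Cd200* was at 333 CPM (291 to 379) in the graft and 629 CPM in its cells with *Fscn1*, against 53.8 CPM (51.2 to 56.4) in Co-Mac and 66.9 CPM (63.8 to 70.1) in VD-Mac. The pair of CCR4 ligands ran the other way, with *Ccl22* at 194 CPM in the graft, 3186 CPM (3166 to 3206) in Co-Mac, and 1515 CPM (1500 to 1531) in VD-Mac, and *Ccl17* at 127, 1744, and 714 CPM. In graft cells with *Fscn1*, *Ccl22* stood at 383 CPM.

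*Cd209a*, *Itgae*, *Ly75*, and *Mgl2* were higher in *Ccr7*-high graft cells than in those of the cultures. Another marker, *Irf8*, differed from these, at 431 CPM in the graft, 243 CPM in Co-Mac, and 527 CPM in VD-Mac. In graft cells with *Fscn1* it stood at 684 CPM. *Cd209a* had 205 CPM in *Ccr7*-high graft cells, 0.327 CPM in Co-Mac, and 0 UMIs in VD-Mac, and *Itgae* had 74.5, 1.05, and 1.67 CPM. *Ly75* stood at 213 CPM (180.1 to 251), 63.1 CPM (60.3 to 66.0), and 71.2 CPM (68.0 to 74.6), and *Mgl2* at 374, 18.6, and 2.02 CPM. In *Cd209a* and *Itgae* the cells of the cultures thus resembled the graft cells with *Fscn1*, in which both genes had 0 UMIs.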

How the data were processed

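The counts of the authors, UMIs of mouse genes from Cell Ranger 3.1.0, were used without normalization. The 20 hashtag features of the graft library were left out of all totals. Members were chosen by UMI counts per cell, and UMIs were summed over the cells of a group and divided by the group's total (CPM). The members and the gene lists were chosen with earlier results of these data known. The 15 gene lists and 14 marker lists held 365 genes, matched by symbol. Cd58 and Clec7a were not found and *Ccl19* was on 2 rows, so these were left out. The macrophage genes and their limit were changed after results with a wider gene set, not reported here, had been seen. Thinning drew 2000 UMIs per cell with seed 1, and for a share of 0 the share allowed is 3 over the number of cells. Genes named are those of the lists with at least 50 CPM in a *Ccr7* group, with 2 to 4 examples a list, the 15 with the largest ratio in each direction (at least 50 CPM and a UMI in at least 25% of the cells of the higher group, rule genes left out), and the 6 marker genes *Flt3*, *Ccr7*, *Fscn1*, *Cd209a*, *Itgae*, and *Ly75*. Names outside this rule, such as those used to describe the make-up of the groups and those named for the *Fscn1* comparison or the cultures, were chosen after their values were seen. The calculations used Python 3.11.15, numpy 2.4.6, scipy 1.17.1, pandas 2.3.3, scanpy 1.11.5 for doublet scores, and matplotlib 3.10.9, and the comparison was tested on simulated data.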

Additional observations from a re-analysis of the deposited data

Results flagged for a closer look

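The graft library held 1195935 UMIs of hashtag antibodies, a signal outside the gene counts on which the comparisons rest, whereas the cultures held 0. Nearly all of them came from antibodies named as human hashtags, and what each marked is not known. These counts were used only for the values by hashtag given above and not to divide the sample into mice.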

How the results depend on the processing

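The 24 results, counts of genes, shares, and list medians, were recomputed under 14 planned settings and 7 added after the data were seen, where a setting applies. Of 392 values, 344 stayed close to the value reported (within 1.5-fold, or for a share within its 95% interval), 46 moved further, and 2 more also changed sign from a median beyond that limit. Medians near 0 changed sign more easily, and such changes are counted with the 46 or the 344. Asking for 300 UMIs in place of 300 genes, or leaving out cells with 20 or more immunoglobulin UMIs, kept the same 82 members. The values of these settings could not change and are counted with the 344. Leaving out the highest doublet scores or the shared barcodes left 81 members, so little change was possible there. Without rule genes, the migration median of the *Ccr7* comparison ran from 0.15 (*Ccr7*-high cells without *Fscn1*) to 2.21 (those with *Fscn1*) across settings, and the class II median with against without *Fscn1* from -1.62 to -1.37. No analysis paired by mouse was made, because the library pools the mice and what each hashtag marked is not known.

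Settings that change what is counted moved counts by construction. A floor of 10 CPM gave 1007 higher and 1550 lower genes, and a fold of 3 gave 230 and 213.

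Of the settings on members, *Flt3* of 2 or *Fscn1* of 4 UMIs (59 members) gave a *Ccr7*-high share of 71.2% and medians of -0.87 for uptake, -1.81 for cell cycle, 1.64 for checkpoint, 1.15 for chemokine ligand, and 1.31 for cytokine genes. Thinning to 2000 UMIs, with *Ccr7* of 1 against 0, gave -0.79 for chemoattractant receptors and -0.91 for interferon-stimulated genes. Leaving out the 45 cells with the highest doublet scores, 1 of them a member, moved 2 medians of the *Fscn1* comparison, to -3.54 for uptake and 0.40 for chemokine ligand genes, and the mean over cells gave -1.49 for uptake there. The cause was not tested.

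The rest were added settings. Leaving out cells with plasmacytoid genes or 3 UMIs of *Apoe* and *Fn1* gave medians of 1.60 for checkpoint, 1.44 for cytokine, and -0.13 for lysosomal genes, and a limit of 10 UMIs in place of 3 gave 1.51 for checkpoint and -0.80 for uptake. With only the 24 *Ccr7*-high cells that carried *Fscn1*, 576 genes were higher and 827 lower, and medians were -0.97 for class II, -2.47 for Toll-like receptors, -2.08 for uptake, -1.0 for chemoattractant receptors, -1.76 for lysosomal, and 2.50 for migration genes. With only the 23 others, 247 genes were higher, and medians were -0.81 for uptake, 0.10 for checkpoint, -1.04 for chemokine ligand, -0.18 for cytokine, and 0.35 for migration genes. These follow from which cells were compared.

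Within human hashtag 5, 760 genes were lower and medians were -1.88 for cell cycle, 1.25 for chemoattractant receptors, 1.05 for costimulation, 1.50 for cytokine, and 2.39 for migration genes, and -1.01 for uptake in the *Fscn1* comparison. Within human hashtag 4 the *Ccr7*-high share was 36% and medians were 1.04 for migration and, with a change of sign, -0.75 for chemokine ligand, -0.51 for cytokine, and -0.42 for checkpoint genes. In the *Fscn1* comparison of hashtag 4 cells, 2 against 7, they were -6.06 for uptake and, with a change of sign, -3.09 for chemokine ligand genes. The cause was not tested.

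Depth limited genes under about 8 CPM, the level of 3 counts in the *Ccr7*-low members. A gene with UMIs in 0 of the 30 *Ccr7*-low cells allows a share of up to 10% by a count of 3, and 11.6% by the exact 95% limit. Values come from 1 pool of 5 mice and carry no spread between animals.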
